A study of Rattus norvegicus with 12 samples.

Results

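The genes described here encode 6 peptide hormones of the enteroendocrine cells, Cck, Gip, Sst, Nts, Gcg and Pyy, and 2 granins, Chga and Chgb, which are packed with the hormones into secretory granules. Members were all probe sets whose only gene symbol in the platform annotation is one of these 8 genes. This gave 8 of the 13810 genes with a probe set of their own and 8 of 31142 probe sets, 7 on the Affymetrix rat array 230A and 1, for Nts, on its companion 230B. Each gene thus rests on a single probe set. The 7 probe sets other than Pyy were bright enough to be tested.

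Mucosa was scraped from rat jejunum, the stretch of small intestine between duodenum and ileum. The samples are labelled 12 Week and either High Fe or Low Fe, with 3 arrays per iron group on each of the array types. The labels add iron deficiency and anemia as keywords. They name neither strain, sex, diet nor the time on it, and they do not say whether a sample is 1 animal or a pool, so a p-value here reflects no more than how much these samples scatter, and that scatter may be technical. A scraping holds the whole mucosa, and hormone cells are a small minority of it. In such bulk RNA, fewer cells of a type and less RNA per cell cannot be told apart.

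Enteroendocrine cells are single hormone-secreting cells scattered through the gut epithelium, descended from the same crypt stem cells as enterocytes and goblet cells. Their apical side senses nutrients in the lumen, and their granules are released at the base toward blood vessels and nerves. Hormones follow the length of the gut: cholecystokinin (Cck) and the glucose-dependent insulinotropic polypeptide (Gip) prevail in duodenum and jejunum, whereas neurotensin (Nts), proglucagon (Gcg) and peptide YY (Pyy) increase toward ileum and colon. Somatostatin (Sst) is made in D cells along the tract, and also by enteric neurons. Each is made as a precursor that prohormone convertases and carboxypeptidases cut into the active peptide inside the granule.

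Of the 8 genes, 6 have an entry in the RefSeq promoter table of assembly GRCr8, and those of Sst, Nts, Gcg and Gip are shown because each holds matches to a different set of the motifs searched. Each window runs 5′ to 3′ on the gene's strand, from 250 bases before to 50 bases after the annotated start. Capitals mark matches, on either strand, to 6 motifs: the cAMP response element TGACGTCA, the AP-1 site TGACTCA, the cores ACGTG and GCGTG of hypoxia response elements, the GATA site AGATAA and the TATA box TATAAA. No match overlaps another in these windows.
Sst, chr11:90461296-90461595, plus strand: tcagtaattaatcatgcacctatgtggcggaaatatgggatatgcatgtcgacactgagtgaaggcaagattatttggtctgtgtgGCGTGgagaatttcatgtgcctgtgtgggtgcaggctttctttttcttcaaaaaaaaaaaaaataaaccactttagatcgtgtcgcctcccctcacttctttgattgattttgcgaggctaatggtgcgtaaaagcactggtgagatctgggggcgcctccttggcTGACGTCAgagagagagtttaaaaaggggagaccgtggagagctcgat
Nts, chr7:39460839-39461138, minus strand: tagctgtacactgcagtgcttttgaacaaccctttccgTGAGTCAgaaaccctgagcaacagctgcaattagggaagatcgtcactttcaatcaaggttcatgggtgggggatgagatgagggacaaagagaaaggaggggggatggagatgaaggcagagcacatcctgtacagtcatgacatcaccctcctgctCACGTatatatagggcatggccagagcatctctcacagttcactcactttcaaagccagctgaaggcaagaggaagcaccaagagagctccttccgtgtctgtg
Gcg, chr3:67531484-67531783, minus strand: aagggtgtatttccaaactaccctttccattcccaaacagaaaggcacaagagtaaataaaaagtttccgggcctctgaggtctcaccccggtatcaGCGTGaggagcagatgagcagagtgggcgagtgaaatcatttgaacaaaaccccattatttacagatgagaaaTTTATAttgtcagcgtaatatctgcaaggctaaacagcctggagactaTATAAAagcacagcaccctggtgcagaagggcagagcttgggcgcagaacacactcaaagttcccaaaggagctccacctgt
Gip, chr10:81464820-81465119, plus strand: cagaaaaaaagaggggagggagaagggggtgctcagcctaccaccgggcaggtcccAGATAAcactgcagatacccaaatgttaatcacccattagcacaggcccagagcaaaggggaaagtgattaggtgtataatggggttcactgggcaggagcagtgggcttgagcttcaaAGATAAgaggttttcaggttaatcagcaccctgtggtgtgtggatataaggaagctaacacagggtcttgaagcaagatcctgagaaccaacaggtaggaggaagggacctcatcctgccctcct
The Sst window holds TGACGTCA, which 1.83% of the 33469 windows of this length hold. The Nts window holds an AP-1 site (4.63% of windows), and Gip holds 2 GATA sites (11.6% of windows hold at least 1). The hypoxia core, ACGTG or GCGTG, occurs in the windows of Sst, Nts, Gcg and Pyy, and in 41.6% of all windows. The Chgb window matched none of these letters. A match describes the sequence and is not a measured binding site.

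No difference between the iron groups was called for any tested hormone or granin gene. Of the 7 tested genes, 0 passed an adjusted p of 0.05 and 0 an unadjusted p of 0.05 in limma, and in all 7 the groups overlapped. Over the whole of 230A 0.0945% of 9519 tested probe sets passed (0.084% higher and 0.0105% lower in low Fe), and 6.72% had an unadjusted p under 0.05. Over 230B 0% of 9163 passed and 10.3% had such an unadjusted p. The groups did not overlap for 11.7% of tested probe sets on 230A (5.61% higher and 6.12% lower in low Fe) and for 17.5% on 230B (7.17% higher and 10.3% lower). Differences are given as low Fe minus high Fe in log2(signal + 16), and for the 7 genes they lay between -0.0072 for Sst and 0.28 for Chga. Their median over the 6 genes on 230A was 0.09, against -0.015 over all tested probe sets of that type, and the median size of a difference on 230A was 0.14 in either direction. The 230A arrays did register a larger change, since Slc11a2, the apical iron transporter, had a log2 difference of 2.19 ± 0.15 (SE, limma adjusted p = 0.0011). That does not show that differences as small as those of the hormone genes would be called, and it does not cover Nts on 230B.

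**Figure D1:**
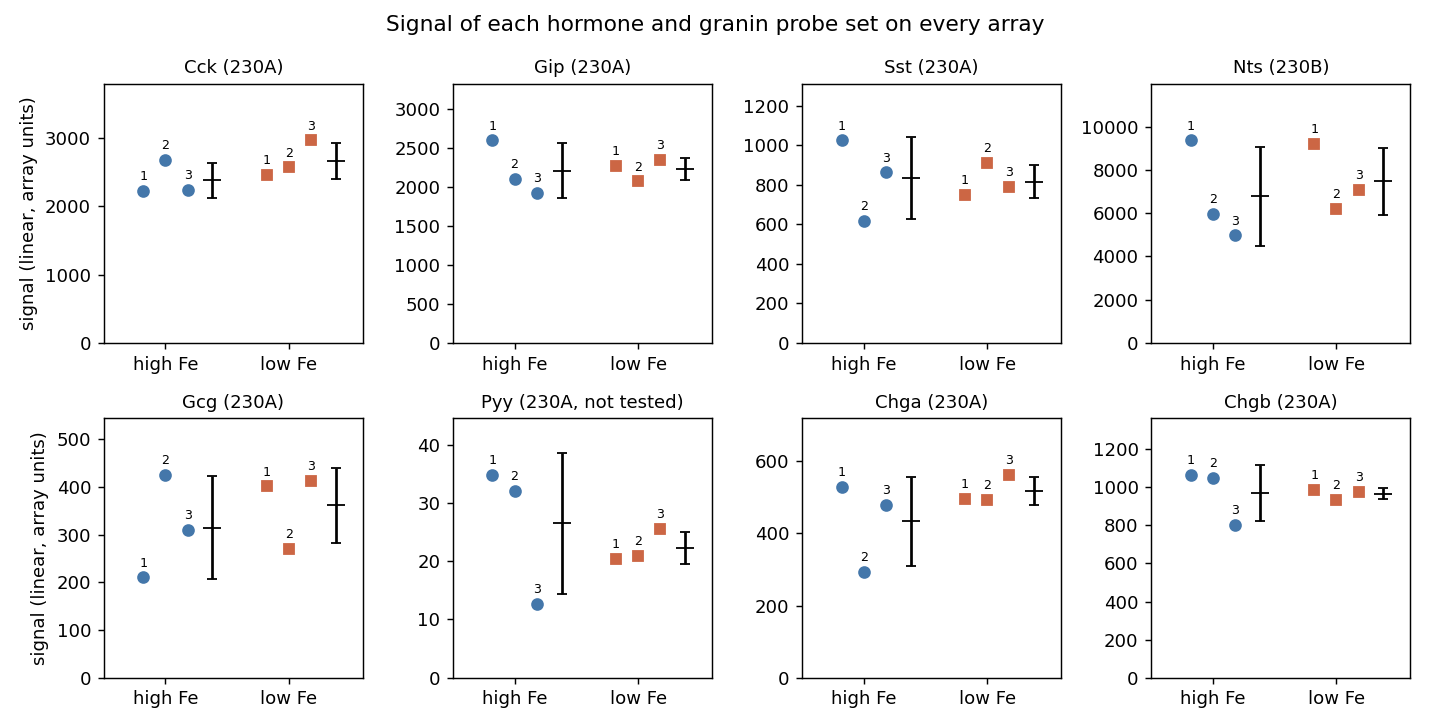
Linear signal of the 8 probe sets on every array, high Fe as blue circles and low Fe as orange squares, with the replicate number above each point and the mean ± SD of 3 arrays in black. Low Fe points lie within or beside the high Fe points in every panel, and no Pyy signal exceeds 34.8 units.

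Cck is the hormone of I cells that contracts the gall bladder, drives pancreatic enzyme secretion and signals satiety. Its signals were 2228.7, 2674.2 and 2236.5 in replicates 1, 2 and 3 of high Fe and 2462, 2565.2 and 2962.1 in those of low Fe, and signals of the other genes are given in the same order. High Fe replicate 2 was above low Fe replicates 1 and 2, so the groups overlapped, although high Fe replicates 1 and 3 were the lowest of the 6. The means were 2379.8 ± 255 and 2663 ± 264 (SD, n = 3 each). The log2 difference was 0.16 ± 0.13 (SE, limma adjusted p = 0.836), with a 95% interval from -0.14 to 0.46, or ratios of low to high Fe from 0.908 to 1.38. These intervals are per gene and are not adjusted for the number of genes. The difference was 0.083 when low Fe replicate 3 was left out and 0.25 when high Fe replicate 2 was.

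Gip, the incretin of K cells that raises insulin secretion after a meal, gave 2595.1, 2105.2 and 1924 in high Fe and 2269.5, 2069.3 and 2349.6 in low Fe. The low Fe arrays all lay between the highest and lowest high Fe array. The means were 2208 ± 347 and 2229 ± 144, a log2 difference of 0.023 ± 0.14 (adjusted p = 0.981). The 95% interval ran from -0.30 to 0.35, ratios from 0.813 to 1.27. Of the 7 intervals only that of Cck was narrower.

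Sst, somatostatin, restrains the release of most other gut hormones. Its signals were 1024.8, 615.5 and 862.3 in high Fe and 748.9, 908.6 and 788.1 in low Fe. High Fe replicate 1 was the highest and high Fe replicate 2 the lowest of the 6, with the low Fe arrays in between. The means were 834 ± 206 and 815 ± 83.2, a log2 difference of -0.0072 ± 0.19 (adjusted p = 0.996) with a 95% interval from -0.44 to 0.43. Without high Fe replicate 1 it was 0.15 and without high Fe replicate 2 it was -0.21.

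Nts, neurotensin, is made by N cells and promotes fat uptake and mucosal growth. It was measured on 230B, with 9371, 5985.6 and 4971.2 in high Fe and 9189.5, 6185.9 and 7064 in low Fe. Replicate 1 was the highest of each group, and high Fe replicate 3 the lowest of all. The means were 6776 ± 2304 and 7479.8 ± 1544, a log2 difference of 0.17 ± 0.25 (adjusted p = 0.811), with a 95% interval from -0.40 to 0.75. Leaving out high Fe replicate 1 gave 0.43, leaving out high Fe replicate 3 gave -0.022, and leaving out low Fe replicate 1 gave 0.017. Signals of 230B are on another scale than those of 230A, because each type was scaled to the same average.

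Gcg encodes proglucagon, which L cells cut into the glucagon-like peptides GLP-1, an incretin, and GLP-2, a growth factor of the mucosa. Its signals were 210.1, 424.8 and 309.4 in high Fe and 401.1, 270.4 and 412.3 in low Fe. Both the lowest and the highest array belonged to high Fe. The means were 315 ± 107 and 361 ± 78.9, a log2 difference of 0.22 ± 0.26 (adjusted p = 0.880), and the 95% interval from -0.37 to 0.81, ratios from 0.772 to 1.76, was the widest of the 7. The difference was -0.029 without high Fe replicate 1 and 0.45 without high Fe replicate 2.

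Pyy, the peptide of distal L cells that slows gut transit, gave 34.8, 32.1 and 12.6 in high Fe and 20.4, 20.9 and 25.5 in low Fe. All 6 signals lay under 109, the mean signal at which the dimmest 40% of 230A probe sets end, so Pyy was not tested with the others. In the fit that kept all probe sets its log2 difference was -0.11 ± 0.25 (adjusted p = 0.958, 95% interval -0.69 to 0.47). At this signal the arrays cannot show whether Pyy transcript differed. Fabp6, the ileal bile acid binding protein and a marker of the distal small intestine, was likewise dim and not tested (28.2 to 133.9 over the 6 arrays). So were the ileum markers Slc10a2 and Fgf19. Others of that list were bright and tested, Guca2a and Cubn on 230A (means over the 6 arrays of 7887 and 2891) and Slc51a on 230B (25323), and 0 passed.

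Chga, chromogranin A, helps form dense-core granules and is the usual tissue marker of the whole lineage. Its signals were 528.3, 293.5 and 479.5 in high Fe and 494.7, 494.1 and 561.9 in low Fe. High Fe replicate 2 was far below the other 5 arrays, which lay between 479.5 and 561.9. The means were 434 ± 124 and 517 ± 39.0, a log2 difference of 0.28 ± 0.21 (adjusted p = 0.822, 95% interval -0.20 to 0.77). This was the largest of the 7, and without high Fe replicate 2 it was 0.035.

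Chgb, chromogranin B, is a granule protein of the same family. Its signals were 1064.4, 1048.1 and 801.3 in high Fe and 987.4, 932.4 and 977.6 in low Fe. The 3 low Fe arrays lay close together, inside the high Fe range. The means were 971 ± 147 and 966 ± 29.3, a log2 difference of 0.0030 ± 0.15 (adjusted p = 0.998, 95% interval -0.33 to 0.33). High Fe replicate 2, lowest for Chga, was the second highest for Chgb, so the granins did not share that low array.

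**Figure D2:**
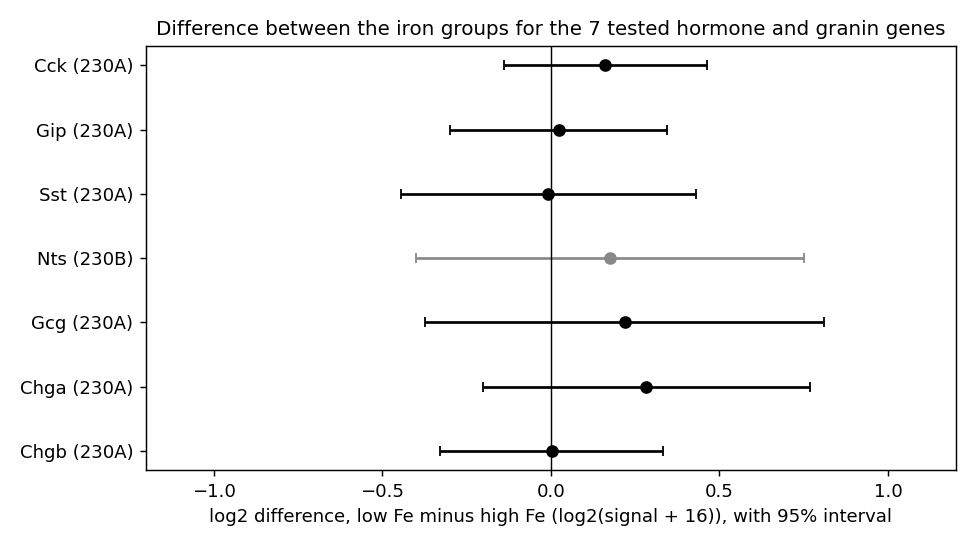
Log2 difference between low Fe and high Fe (x axis) for the 7 tested genes, with unadjusted 95% intervals from limma, 230A in black and 230B in grey. Every interval includes 0, and together they reach from -0.44 to 0.81.

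The width of these intervals sets what can be read from them. For Cck, Gip, Sst and Chgb, a ratio of low to high Fe above 1.38 lay outside the 95% interval. For Nts, Gcg and Chga the intervals reached ratios of 1.68, 1.76 and 1.70, so higher levels in low Fe up to those ratios lay within the intervals. On the lower side the 7 intervals reached ratios of 0.735 for Sst to 0.908 for Cck. That a gene missed the threshold does not show that its level was the same.

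The SD of log2(signal + 16) was larger in high Fe than in low Fe for all 7 tested genes, though nearly equal for Cck, whose linear SD was the larger in low Fe (264 against 255). It was 0.23 in high Fe and 0.043 in low Fe for Chgb, 0.44 and 0.10 for Chga, 0.37 and 0.14 for Sst, and 0.22 and 0.094 for Gip. For Nts the log2 SD was 0.47 and 0.29, for Gcg 0.48 and 0.32, and for Cck 0.15 and 0.14. Over all tested probe sets the high Fe SD was the larger in 51.2% on 230A and in 59.2% on 230B. The count of 7 is a description, and the difference in spread was not tested.

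The highest and lowest values of high Fe were spread over its 3 arrays. High Fe replicate 1 was the highest of 6 for Gip, Sst, Nts and Chgb and the lowest for Cck and Gcg. High Fe replicate 2 was the lowest for Sst and Chga and the highest for Gcg, and high Fe replicate 3 was the lowest for Gip, Nts and Chgb. In low Fe, replicates 1 and 2 were neither highest nor lowest for any tested gene, and replicate 3 was the highest for Cck and Chga. The hormone genes therefore did not go up and down together over the arrays: in high Fe replicate 1 Sst was 0.33 above and Gcg 0.61 below its own mean over the 6 arrays on the log2 scale. In high Fe replicate 2 the deviations were 0.36 for Gcg, -0.40 for Sst and -0.64 for Chga.

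**Figure D3:**
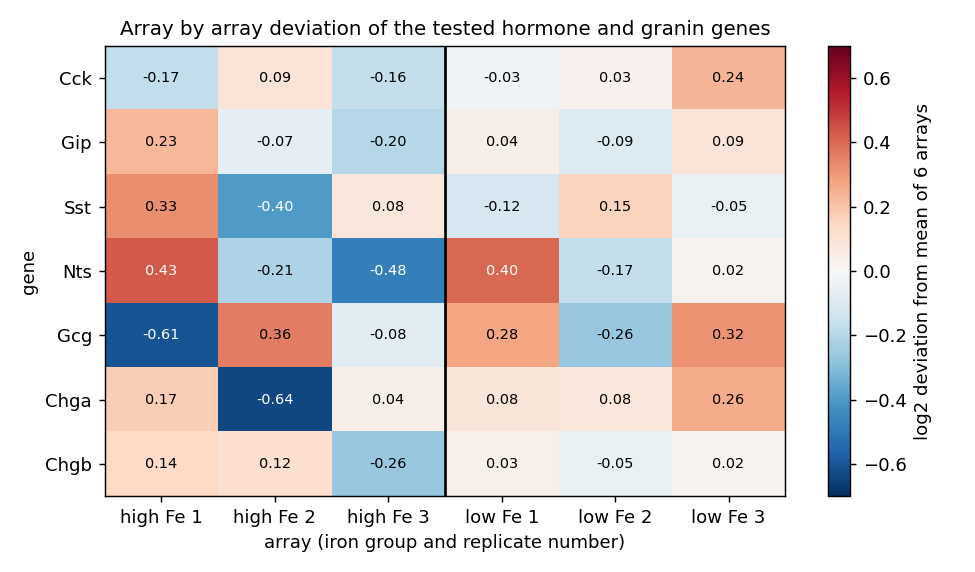
Log2 deviation of every array (columns, 3 high Fe left of the line and 3 low Fe right of it) from the mean over the 6 arrays, for the 7 tested genes (rows), red above and blue below. The deepest colours are in the high Fe columns, at -0.64 for Chga in replicate 2 and -0.61 for Gcg in replicate 1.

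High Fe replicates 1 and 2 also stood apart in other measurements. Replicate 2 had the highest summed signal of 8 enterocyte markers on 230A (141672, against 85035 to 114153 on the other arrays) and of 5 goblet cell markers (69446, against 45974 to 55516), and replicate 1 the lowest of both. On 230B the sum of the 3 goblet cell markers measured there ranked otherwise, at 34562 to 41836 in high Fe, lowest in replicate 3, and 42521 to 49977 in low Fe, without overlap. Each of these 3 markers overlapped by itself and 0 passed. The mean log2 signal of the hybridization controls, RNAs added before hybridization, was 10.26 in high Fe replicate 2 and 9.23 to 9.52 on the other 230A arrays. The 5'/3' signal ratio of GAPDH, a sign of RNA quality, was 0.794 to 0.811 on the arrays of low Fe replicates 2 and 3 and of replicate 1 of high Fe, and 0.876 to 0.922 on the rest, and that of beta-actin was 0.0539 in low Fe replicate 3 against 0.591 or more elsewhere on 230A. Among the arrays of lower GAPDH ratio, 1 high Fe and 2 low Fe, the log2 differences were 0.63 for Gcg, 0.30 for Cck, -0.23 for Gip, -0.27 for Sst, -0.0036 for Chga and -0.15 for Chgb. Among those of higher ratio, 2 high Fe and 1 low Fe, they were 0.14, 0.0096, 0.17, 0.039, 0.38 and 0.11 in the same order. For Nts on 230B the difference was -0.60 between the arrays of lower ratio, 1 in each group. Among those of higher ratio, 2 in each group, it was 0.56. These included low Fe replicate 3, whose beta-actin ratio on 230B was 0.0473, against 0.499 or more elsewhere on that type. The sign thus differed between the sets for Gip, Sst, Nts, Chga and Chgb. The part of these array properties in the hormone values was not tested.

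Markers of the jejunal epithelium were bright in both groups. All 8 enterocyte markers with a 230A probe set and the 2 on 230B were tested and 0 passed, with differences from -0.23 to 0.023 on 230A. Of the 16 neuron and glia markers with a 230A probe set, which bear on Sst and Nts since neurons can make both, 13 were too dim to be tested, among them Tubb3, Uchl1, Elavl4 and Vip. Of the 3 tested 0 passed, with S100b at -0.63 ± 0.32, Nos1 at 0.026 ± 0.32 and Gfap at 0.070 ± 0.17. The summed signal of all 16 was 883 to 1260.4 in high Fe and 903 to 1063 in low Fe. Of the 14 pancreas markers, which bear on Sst and Gcg as islet hormones, 11 were too dim, including Ins2, Iapp and Ppy. None of the 3 tested passed. Ins1, an insulin gene, gave 0.067 ± 0.17, Cela1 0.96 ± 0.59 and Cpb1 -0.25 ± 0.23. The Cela1 signals ran from 35.1 to 293.7 in high Fe and from 139 to 340.6 in low Fe. Smooth muscle markers summed to 3505 to 4211 in high Fe and 4523 to 5928 in low Fe on 230A without overlap. Much of these sums was Mylk, with mean 230A signals of 2754 in high Fe and 3711 in low Fe. Of the 5 tested there 0 passed, but all 5 were above 0, with a median log2 difference of 0.56. Among them 3 were higher in low Fe without overlap, against 5.61% of all tested 230A probe sets. An unadjusted limma p under 0.05 was found for 3 of the 5, against 6.72% of all. On 230B the sum of 4 smooth muscle markers overlapped, at 919 to 1346 in high Fe and 882 to 1444 in low Fe. Their part in the hormone values was not tested.

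The other genes of the enteroendocrine pathway were taken from 6 lists of 141 genes beside the 8, of which 115 had a probe set of their own and 66 were tested. Of their 69 tested probe sets 0 passed the adjusted threshold on either array type, 1 had an unadjusted p under 0.05, and the smallest limma adjusted p was 0.427. The groups did not overlap for 4 of the 58 on 230A and 1 of the 11 on 230B, all lower in low Fe, where 6.12% and 10.3% of all tested probe sets were lower without overlap. The median log2 difference was -0.065 on 230A, against -0.015 over all tested probe sets.

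**Figure D4:**
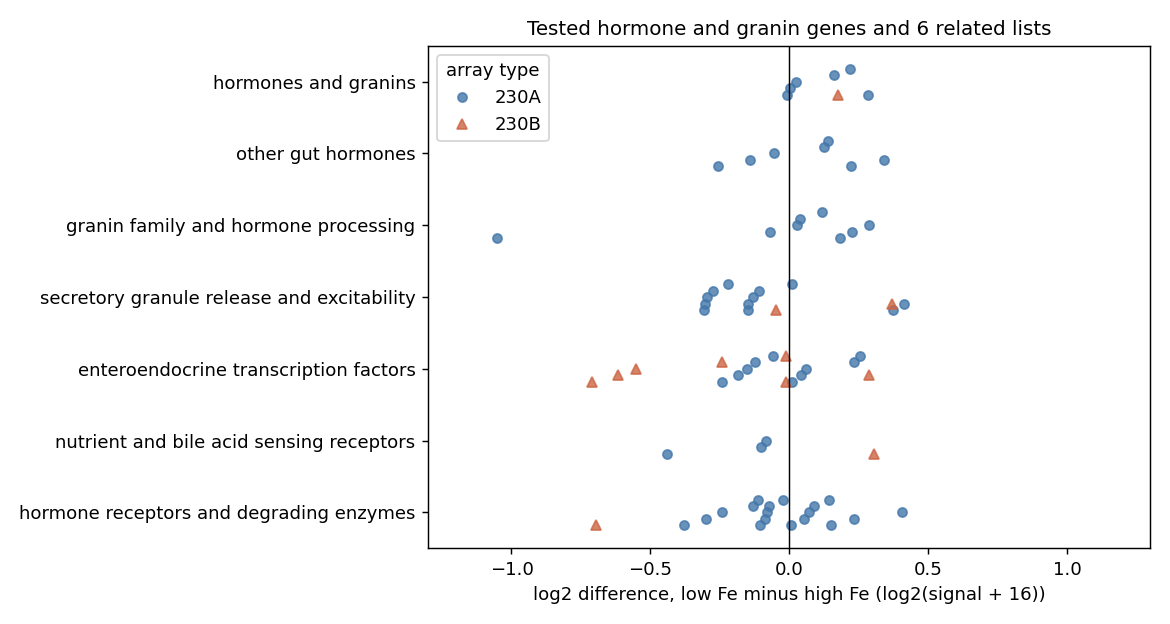
Log2 difference between low Fe and high Fe (x axis) for each tested gene of the hormone and granin set and of 6 related lists (rows), 230A as blue circles and 230B as orange triangles, spread vertically only for legibility. The hormone and granin genes lie between -0.0072 and 0.28, and the most negative value is -1.05 for Cpd.

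Of 20 other gut hormones, 7 were tested and 0 passed. Guca2b, uroguanylin, which regulates intestinal fluid and salt, gave -0.26 ± 0.15 and Sct, secretin, the hormone that evokes pancreatic bicarbonate, -0.14 ± 0.13. Penk, proenkephalin, gave 0.34 ± 0.22 and Nmu, neuromedin U, 0.22 ± 0.16. Limma adjusted p ran from 0.781 to 0.858 for these 4. Guca2b and Penk were -0.11 and 0.12 without high Fe replicate 2, and Nmu was 0.11 without high Fe replicate 1. Gast, Tac1 and Iapp were among the 9 too dim to be tested.

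Of 15 other granins and processing genes, 8 were tested, 6 above 0 and 2 below, and 0 passed. Cpe, the carboxypeptidase that trims hormone precursors in the granule, gave 0.18 ± 0.15, and Furin, a convertase of the Golgi, 0.29 ± 0.21. Furin was 0.060 without high Fe replicate 2 and 0.49 without high Fe replicate 1, and Cpe was 0.11 when low Fe replicate 2 was left out and 0.30 when replicate 3 of that group was. Ptprn, a granule membrane protein, gave 0.23 ± 0.25, -0.051 without high Fe replicate 1 and 0.51 without high Fe replicate 3. Cpd, a carboxypeptidase of the trans-Golgi, had the largest difference, -1.05 ± 0.53 (adjusted p = 0.765), with signals of 269.4, 1029.6 and 1090.3 in high Fe and 558.4, 282.8 and 199 in low Fe. High Fe replicate 1 lay among the low Fe arrays, and the difference was -1.69 without it. Leaving out high Fe replicate 3 gave -0.71, and a fit that allowed for the GAPDH ratio of the arrays gave -0.54. The Cpd signal was 199 to 282.8 on the arrays of lower GAPDH ratio and 558.4 to 1090.3 on those of higher ratio. The cause of this split was not tested. The less bright probe set of Cpd was too dim to be tested (ratio of low to high Fe 1.04). Scg2, Scg3, Vgf, Pcsk1n and Pcsk2 were too dim to be tested.

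Of 27 genes of granule release and excitability, 14 were tested and 0 passed. Maob, a monoamine oxidase, gave -0.31 ± 0.15, and Cacna1a, a calcium channel subunit, -0.27 ± 0.17, both without overlap. Vamp2, a vesicle protein of exocytosis, gave 0.37 ± 0.22. Leaving out low Fe replicate 2 brought Maob to -0.17 and Cacna1a to -0.16, and Vamp2 was 0.14 without high Fe replicate 3 and 0.60 without high Fe replicate 1. The less bright probe sets of Cacna1a and Vamp2 were too dim to be tested. Ratios of low to high Fe in these were 0.85 to 1.15 for Cacna1a on 230A and 0.80 for Vamp2. For Cacna1a on 230B the ratio was 1.48, higher in low Fe without overlap. Rab27a, a granule docking GTPase, gave 0.37 ± 0.18 on 230B, where its less bright probe set gave -0.067 ± 0.29. The 230A probe set of Rab27a was too dim to be tested (ratio of low to high Fe 0.62).

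Of 27 transcription factors of the lineage and its Notch control, 15 were tested and 0 passed. On 230A the 10 tested were evenly split, with a median of -0.024. On 230B 6 of 7 were below 0, where the median was -0.24 against -0.040 over all tested probe sets. Etv1, an ETS factor, had the smallest p of all list genes, with 634.2, 482 and 602.9 in high Fe and 323.3, 352.6 and 350.2 in low Fe, a log2 difference of -0.71 ± 0.19 (unadjusted p = 0.00462, limma adjusted p = 0.427). Every low Fe array was below every high Fe array for this Etv1 probe set. The 3 other probe sets of Etv1 were too dim to be tested, with ratios of low to high Fe of 1.03, 1.22 and 1.55. Isl1, a LIM factor of several hormone lineages, gave -0.62 ± 0.30, and its 230A probe set was too dim to be tested (ratio of low to high Fe 1.09). Myt1, a zinc finger factor, gave -0.55 ± 0.33 (-0.20 without high Fe replicate 3), with -0.23 ± 0.38 for a less bright probe set. Fev, a factor of serotonin cells, gave 0.25 ± 0.16. Neurog3, the factor that commits cells to the lineage, was too dim to be tested.

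Of 22 nutrient sensing genes, 4 were tested and 0 passed. Cd36, a fatty acid receptor, gave -0.44 ± 0.22, and Tas1r2, a sweet taste receptor subunit, 0.31 ± 0.21 on 230B. Without low Fe replicate 1 Cd36 was -0.66 and Tas1r2 0.14. Cd36 was -0.31 without low Fe replicate 2 and -0.24 when the fit allowed for the GAPDH ratio of the arrays. After scaling to the hybridization controls it was -0.070, where the median over all tested 230A probe sets was 0.34. The Cd36 signal was 1359.2 to 1736.5 on the arrays of lower GAPDH ratio and 2230.4 to 2670.9 on those of higher ratio. The cause of this split was not tested. Slc15a1, the peptide transporter, gave -0.10 ± 0.14 (0.012 without low Fe replicate 3) and Slc5a1, the sodium-glucose transporter, -0.082 ± 0.35 (0.18 without low Fe replicate 3).

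Of 30 hormone receptors and degrading enzymes, 18 were tested and 0 passed. Cpb2, a plasma carboxypeptidase, gave -0.38 ± 0.19 without overlap, at signals from 91.6 to 148.5 near the boundary of testing. Sstr2, a somatostatin receptor, gave -0.30 ± 0.20 and Ghsr, the ghrelin receptor, -0.24 ± 0.21. Without high Fe replicate 2 they were -0.17 and -0.089, and Ghsr was -0.40 without high Fe replicate 3. Htr4, a serotonin receptor, gave 0.41 ± 0.22 on 230A and -0.70 ± 0.38 on 230B, so its probe sets had opposite signs, and the 230A value was 0.20 without high Fe replicate 1. Dpp4, the peptidase that inactivates GLP-1 and GIP, and Mme, neprilysin, fall outside the naming rule and were picked for their role with the values known. They gave -0.13 ± 0.13 and -0.073 ± 0.16.

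The genes whose profile over the 6 arrays was nearest to each tested hormone or granin gene were sought by the root mean square difference of log2 deviations, a distance that is 0 for identical profiles. For Cck they were Dynlrb1 (0.0392) and Rnf115 (0.0460), for Gip C18h18orf32 (0.0360) and Zfp219 (0.0368), for Sst Fbrsl1 (0.0605) and Zswim8 (0.0607), and for Chgb Mrpl14 (0.0417) and Ctsa (0.0479). For Chga they were Sphk2 (0.0566) and Phf2 (0.0573), for Gcg Sv2b (0.112) and Nr4a1 (0.114), and, among 5004 probe sets of 230B, for Nts Zfp143 (0.0878) and Elf2 (0.0995). On 230A 8037 probe sets with 1 symbol were compared for each gene, and the median distance was 0.236 to 0.406. None of the nearest profiles belonged to another gene of the set. With 6 arrays and so many probe sets, near profiles are found for any gene, and the distances are given as a description.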

How the data were processed

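Intensities were deposited by the authors as 1 linear signal per probe set and array. The software that made them was not given in the sources used here. By their values, the arrays were scaled to the same mean after leaving out 2% at each end, 500.1 on 230A and 500.2 on 230B, so that no shift common to most genes is visible. Median signals ran from 154 to 176 and from 259.5 to 302.6. The number of arrays limits the precision.

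Genes were named by the platform annotation. On 230A, 12783 of 15866 probe sets had 1 symbol, 312 several and 2771 none, and on 230B 7564 of 15276 had 1, 100 several and 7612 none. Through Entrez identifiers 12748 and 7524 were updated to RefSeq names (GRCr8).

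Values were transformed as log2(signal + 16), which understates changes of dim genes. The dimmest 40% by mean signal were not tested, with boundaries of 109 and 199.6 signal units. Each type was fitted in limma 3.58.1 (R 4.3.3; lmFit, eBayes with a trend), Benjamini-Hochberg adjusted over the type, threshold 0.05. Of several probe sets of a gene, the brightest was used. The steps were tested on simulated data.

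The naming rule took the 8 genes, up to 4 genes of each list with the smallest p, and the 2 nearest profiles per gene. Marker lists were also summed per array. Deviations of arrays with the same replicate number correlated from -0.37 to -0.10, so no block was used. The genes, lists and alternatives were chosen with earlier results of these data known.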

Additional observations from a re-analysis of the deposited data

How the results depend on the processing

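Across 16 alternatives to the fit (other pseudocounts, filters and scalings, no trend, the replicate number or the GAPDH ratio sets as a block, and each array left out in turn), 0 of the 7 tested genes and 0 of the list genes passed the threshold, nor did any at a threshold of 0.1. Of 112 alternative values of the 7 genes, 93 kept the sign and 19 turned it. The filters, the fit without a trend and the replicate block cannot change a difference, so the signs kept under them were fixed in advance. Sst was 0.060 with a common median, 0.00018 after quantile normalization and 0.36 after scaling to the hybridization controls. Gip was -0.0100 and Chgb -0.015 after quantile normalization, and -0.031 and -0.024 with the GAPDH sets as a block. Without 1 array, Sst ran from -0.21 to 0.15, Gip from -0.070 to 0.14, Gcg from -0.029 to 0.45, Chgb from -0.13 to 0.074, Nts from -0.022 to 0.43, Ptprn from -0.051 to 0.51, Slc15a1 from -0.22 to 0.012 and Slc5a1 from -0.48 to 0.18. Slc5a1 was 0.25 with the GAPDH sets as a block. Scaling to the hybridization controls moved the median over all probe sets to 0.34 on 230A and 0.145 on 230B. Under it the 7 genes lay between 0.36 and 0.64, or 0.015 to 0.30 above that median, and Guca2b gave 0.12, Sct 0.22, Maob 0.064, Cacna1a 0.070, Slc15a1 0.27, Slc5a1 0.29, Sstr2 0.046 and Ghsr 0.10. The cause was not tested.

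The number of probe sets past the threshold on 230A, 9 (8 higher, 1 lower), became 33 under that scaling (24 higher, 9 lower), 4 with the replicate block, 15 at a threshold of 0.1, and 5 to 21 without 1 array (5 without low Fe replicate 2, 21 without low Fe replicate 1). On 230B the 0 became 5 after scaling to the hybridization controls. Both iron groups held every replicate number, so the replicate block could not change a difference. It changed no call among the hormone and granin genes. The 8 genes have 1 probe set each, so the mean of probe sets and the other array type gave no further value.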
